A study of Rattus norvegicus with 36 samples.

Results

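The livers of rats that received only the corn oil vehicle were described by 6 of the 36 arrays of a 5-day oral dosing study of decaBDE (decabromodiphenyl oxide), a brominated flame retardant. The 6 arrays were taken by their titles, as vehicle replicates 1 to 6, and all probe sets other than the array's own controls were used. The rats were male Harlan Sprague Dawley, 7 weeks old at the start, and were gavaged with 5 ml/kg of corn oil on 5 consecutive days. RNA came from the left liver lobe, taken 1 day after the last dose, and was hybridised to an Affymetrix 3' expression array. The other 30 arrays, 6 at each of 5 doses from 959 mg/kg down to 0.1 mg/kg (with 95.9, 9.59 and 0.959 mg/kg between) in the same oil, were used to measure the spread within a group and, for Ugt2b and Abhd3, to count arrays at each level. No dose was compared with vehicle. The labels do not say outright that each array is a separate rat, so the spread below is a spread between arrays and may in part be technical.

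The liver makes most plasma proteins, takes up and chemically modifies foreign compounds, and stores and releases sugar and fat. Hepatocytes are most of its mass, and Kupffer cells (resident macrophages), sinusoidal endothelium, stellate cells and bile duct cells make up the rest. Many hepatocyte genes follow feeding, time of day, stress hormones and the pulses of growth hormone, and immune genes follow interferon.

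Values are log2 signals, so a step of 1 is a doubling, and errors are SDs over the 6 arrays (n = 6). A gene with several probe sets is represented by its brightest. The 14217 genes had means between 2.31 and 14.98, with a median of 6.43. Of them, 1252 (8.81%) reached a level of 10, 312 reached 12, 107 reached 13 and 25 reached 14. The arrays were alike, with medians of 5.14 to 5.21 and correlations of 0.993 to 0.996 between arrays across probe sets. The actin control, whose 3' over 5' difference is a sign of RNA quality, gave 1.16 ± 0.050 log2 units, between 1.10 and 1.22. The deposited values carry no detection calls, so a low signal may be background.

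The tissue label was checked against marker lists. The 19 hepatocyte markers had a median level of 14.22. The defining markers of skeletal muscle were low, with a median of 3.61 over 11 genes and Des highest at 5.59. Exocrine pancreas markers had a median of 4.07 over 14 genes, with trypsinogen Prss1 at 3.27 and amylase Amy2a3 at 2.92, and only Cela1 stood high at 10.09. Neutrophil markers had a median of 3.73 over 11 genes. Kupffer cell and macrophage markers had a median of 9.21 over 14 genes, endothelial markers 7.68 over 15, stellate cell and fibroblast markers 6.66 over 18, and bile duct markers 4.70 over 10. Adipocyte and mesothelial markers had a median of 4.44 over 10 genes, lymphocyte markers 5.08 over 23 and platelet markers 5.26 over 9. In such bulk RNA, fewer cells of a type and less RNA per cell cannot be told apart.

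The brightest genes coded mostly for secreted plasma proteins. Albumin (Alb) stood first at 14.98 ± 0.0087. The thyroid hormone and retinol carrier transthyretin (Ttr) followed at 14.53 ± 0.026 and the vitamin D carrier Gc at 14.49 ± 0.012. Next were apolipoprotein Apoc3 at 14.45, the protease inhibitor Serpina1 at 14.40 and the hemoglobin scavenger haptoglobin (Hp) at 14.38. The mitochondrially encoded COX2, a subunit of cytochrome oxidase, was at 14.37 and fibrinogen gamma (Fgg) was also at 14.37. Apolipoprotein Apoe was at 14.34, Rup2 at 14.29, Apoh at 14.28, Ambp at 14.27 and the fetuin Ahsg at 14.26. Of the 30 highest genes, 14 belonged to the apolipoprotein, serpin, coagulation, complement or inter-alpha-trypsin inhibitor families. Enzymes and intracellular carriers among them were Fabp1 at 14.25, Mgst1 at 14.12, Cyp3a2 at 14.08, the carbonic anhydrase Car3 at 14.07 and Cyp2e1 at 13.88. The rest of the 30 were C3, Fga, Rbp4, Fgb, Serpina3l, Apoc1, Itih3, Serpina3c, B2m, Selenop, Hpx and, last, antithrombin (Serpinc1) at 13.85.

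By their brightest probe sets, these 30 genes differed little between arrays. The SDs ran from 0.0077 (Serpina1) to 0.085 (Cyp2e1), with a median of 0.030. The widest ratio between any 2 arrays was 1.18-fold, for Car3, which was lowest in replicate 4 at 13.99 and highest in replicate 6 at 14.22. Signals this bright approach the top of the array's range (the highest value was 14.99), and their part in the small spread was not tested. Dimmer probe sets of the same genes varied more: the second of Car3 ran from 12.69 to 13.31 (SD ratio 3.13, limma-based adjusted p = 0.147) and the second of B2m had a mean of 11.43 (SD ratio 2.76, adjusted p = 0.254). Probe sets of 1 gene could also differ widely in level. The second probe set of Apoe read 2.87 against 14.34, and the third of Fgb read 3.21 against 14.20. Of the 4 probe sets of Rup2, 3 read 14.19 to 14.29 with SDs up to 0.025, while the fourth read 8.80 ± 1.22 and was high in replicates 2 and 5.

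Promoters of bright genes were searched for TATAAA, the core of the TATA box, on both strands in the 250 bases before the gene start (RefSeq, GRCr8). Of the 30 highest genes, 25 had a promoter in the table and 6 held the motif (24.0%), and of the 100 highest, 83 had a promoter and 18 held it (21.7%). Among all 27457 promoters of that length, 13.1% held it. The last 60 bases before the start of 4 of these plasma protein and carrier genes are given because the motif lies close to the start in each, with TATAAA in capitals. A match is a description of letters only.
Fgg (chr2:170653023-170653082, plus strand): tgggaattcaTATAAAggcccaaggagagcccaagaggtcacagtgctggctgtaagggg
Fabp1 (chr4:104749280-104749339, plus strand): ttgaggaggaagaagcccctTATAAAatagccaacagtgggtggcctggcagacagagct
Rbp4 (chr1:245313552-245313611, minus strand): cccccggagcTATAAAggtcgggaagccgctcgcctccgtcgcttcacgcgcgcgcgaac
Itih3 (chr16:6123375-6123434, minus strand): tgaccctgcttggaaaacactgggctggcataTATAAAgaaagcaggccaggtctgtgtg
The first base of the motif lay 50 bases before the start in Fgg and Rbp4, 40 before it in Fabp1 and 28 before it in Itih3.

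Members of 28 liver gene families were ordered by signal, 483 members in all. The order is one of signals, not of transcript amounts, because probe sets differ in affinity: in the 4525 genes with more than 1 probe set, the brightest exceeded the next by a median of 1.18 log2 units (2.27-fold). Near-identical paralogs, as in the Cyp2c, Ugt2b, Gst and Ces groups, may also share signal. Probe sets that the annotation gives to several genes have no place in these orders. A probe set shared by glutathione transferases had a mean of 13.14, and another, shared by cytochromes P450, 10.96. Of 455 pairs of neighbours in these orders, 224 (49.2%) kept their order in all 6 arrays, and the other pairs changed order in at least 1 array. With the mean over all probe sets of a gene in place of the brightest, 391 of the 455 neighbour pairs kept their order and 22 of 28 families kept their first member.

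**Figure D1:**
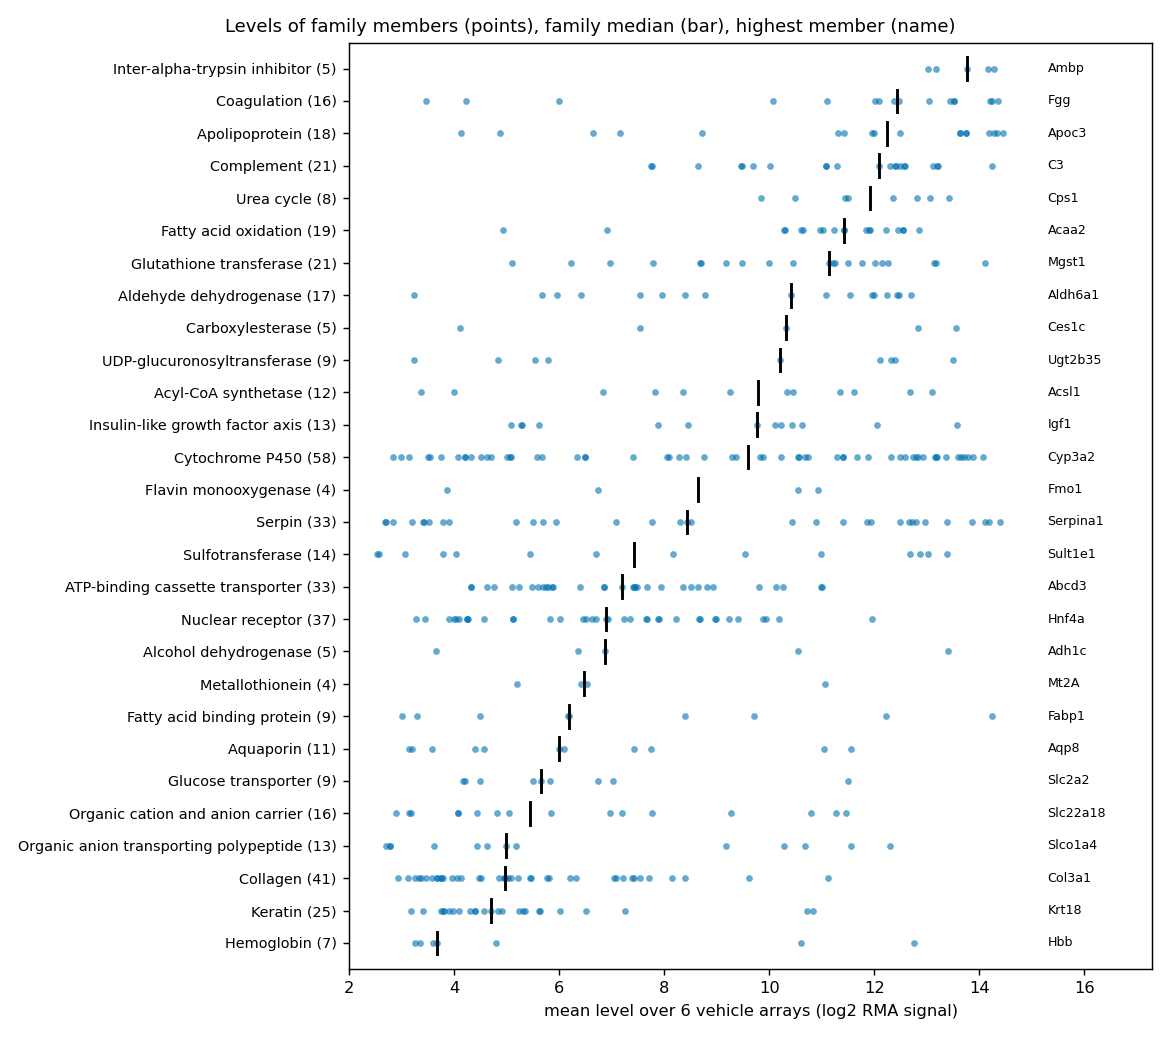
Mean level over the 6 vehicle arrays (log2 RMA signal, x axis) of every member of 28 gene families (points; number of members in parentheses), with the family median as a bar and the highest member named at the right. All 5 inter-alpha-trypsin inhibitor genes lie above 13, whereas the collagen and keratin families have medians below 5, with 1 and 2 members at or above 10.

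The 4 families with the highest medians were all of plasma proteins: inter-alpha-trypsin inhibitors (13.77), coagulation (12.43), apolipoproteins (12.24) and complement (12.09). The serpins covered a wide range, with a median of 8.44. In the inter-alpha-trypsin inhibitor family, which binds hyaluronan in matrix, Ambp led at 14.27, before Itih3 at 14.16, Itih4 at 13.77, Itih1 at 13.17 and Itih2 at 13.02, and every neighbour pair kept its order in 6 of 6 arrays. In the coagulation family the 3 fibrinogen chains led, Fgg at 14.37, Fga at 14.24 and Fgb at 14.20, each pair in order in 6 of 6 arrays. Plasminogen (Plg, 13.53) and Hrg (13.52) kept order in only 3 of 6, and F13a1 was last at 3.47. Among 18 apolipoproteins, Apoc3 (14.45) and Apoe (14.34) led in that order in all 6 arrays, Apoh (14.28) lay above Apoc1 (14.19) in 5 of 6, and Apol11a was last at 4.14. Apoa2, Apob and Apoa1, at 13.76, 13.74 and 13.64, were not separated in all arrays. Of 33 serpins, the protease inhibitors, Serpina1 (14.40), Serpina3l (14.19) and Serpina3c (14.12) led in order in 6 of 6 arrays, and Serpinb2 was last at 2.68. Of 21 complement genes, C3 led at 14.24, over 1 unit above Cfi at 13.21 and C4bpa at 13.20, and Cfd was last at 7.75.

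Enzymes that act on foreign compounds covered a wide range. Of 58 cytochromes P450, the oxidases of drug and steroid metabolism, 27 reached a level of 10 and 17 reached 12. Cyp3a2 led at 14.08 ± 0.050, then Cyp2e1 at 13.88 and Cyp2c6v1 at 13.78, then the male-predominant Cyp2c13 at 13.72 and Cyp2c11 at 13.65, and the adrenal Cyp11b1 was last at 2.84. Only the first of these neighbour pairs kept its order in 6 of 6 arrays. Among 9 Ugt genes, most of them for enzymes that attach glucuronic acid, Ugt2b35 had the highest mean, 13.51. It lay above Ugt2b1 in 6 of 6 arrays. By mean, Ugt2b1 at 12.39 and Ugt2b15 at 12.32 came next. Last was Ugt8 at 3.24, a galactosyltransferase that the name pattern also took in. No Ugt1a gene had a place in this order. The fourth place of Ugt2b, at a mean of 12.11, rests on 1 array: it lay above Ugt2b15 in 5 of 6. In those 5 arrays it read 13.35 to 13.44, above the means of Ugt2b1 and Ugt2b15.

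Among 14 sulfotransferases, Sult1e1 (13.38), Sult1b1 (13.03) and Sult1c3 (12.88) led, and Sult1d1 was last at 2.53. Of 21 glutathione transferases, Mgst1 led at 14.12 in all arrays, Gstm1 (13.17) and Gsta1 (13.13) kept order in 3 of 6, and Gsto2 was last at 5.09. The carboxylesterases ran from Ces1c (13.56) through Ces1d (12.84) and Ces1e (10.32) to Ces5a (4.10), in the same order in all 6 arrays. Alcohol dehydrogenases likewise ran from Adh1c (13.41) through Adh5 (10.55) and Adh4 (6.87) to Adh6a (3.65). Aldehyde dehydrogenases began with Aldh6a1 (12.69), Aldh9a1 (12.47) and Aldh2 (12.43) and ended with Aldh3a1 (3.23). Flavin monooxygenases ran from Fmo1 (10.92) through Fmo5 (10.55) and Fmo4 (6.74) to Fmo2 (3.86), each pair in order in all 6 arrays.

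Transporters had fewer bright members. The organic anion transporters that take up bile acids and hormones began with Slco1a4 (12.30), Slco1b2 (11.56) and Slco2a1 (10.68), in order in all 6 arrays, and ended with Slco1c1 (2.70). The Slc22 carriers began with Slc22a18 (11.47), Slc22a7 (11.27) and Slc22a8 (10.80) and ended with Slc22a12 (2.88). Among 33 ATP-binding cassette transporters, peroxisomal Abcd3 (10.80 to 11.15 over the arrays) and the bile salt export pump Abcb11 (mean 10.98) kept order in 3 of 6 arrays, Abcc2 was next at 10.26, and Abca7 was last at 4.32. Slc2a2, the hepatocyte glucose transporter, stood well above any other glucose carrier, at 11.51 against 7.02 for Slc2a9 and 6.73 for Slc2a8, with Slc2a13 last at 4.17. Aquaporins Aqp8 (11.56) and Aqp9 (11.04) led, Aqp11 followed at 7.74, and Aqp3 was last at 3.14.

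Metabolic families differed in level. The urea cycle, with a median of 11.93, ran from Cps1 (13.42), its first enzyme, through Arg1 (13.06) and Ass1 (12.81) to Nags (9.85), so that no member was dim. In fatty acid oxidation, 17 of 19 genes reached a level of 10: Acaa2 (12.86), Acadl (12.55) and Acadm (12.55) led, and the muscle form Cpt1b was last at 4.92. Of 12 acyl-CoA synthetases, 6 reached a level of 10. They began with Acsl1 (13.11), Acsm1 (12.69) and Acsl4 (11.62) and ended with Acsl6 (3.36). Fabp1, the liver fatty acid binding protein, was at 14.25, with Fabp7 at 12.23 and Fabp5 at 9.71 behind it and the ileal Fabp6 last at 3.00, and the median of the 9 members was 6.18.

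In the growth factor axis, Igf1, the hormone made in response to growth hormone, led at 13.57. The growth hormone receptor Ghr followed at 12.06 and Igfbp7 at 10.63, and the receptor Igf1r was last at 5.07. Nuclear receptors were mostly of middling signal: only Hnf4a (11.96) and the bile acid receptor Nr1h4 (10.19) of 37 reached a level of 10, Nr1h3 followed at 9.93, and the vitamin D receptor Vdr was last at 3.26. Metallothionein Mt2A was at 11.06, Mt1 at 6.52, Mt3 at 6.41 and Mt4 at 5.19. Probe sets that the annotation gives to several genes are outside these orders, and a brighter one (mean 12.79) includes a metallothionein, so these places rest on probe sets of 1 gene only.

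The structural families had few bright members. Krt18 (10.84) and Krt8 (10.71), the keratin pair of hepatocytes, stood well above Krt79 (7.26), and Krt23 was last of 25 at 3.18. Col3a1 was the only collagen of 41 above 10, at 11.13, with Col18a1 at 9.61 and Col14a1 at 8.40 next and Col25a1 last at 2.93. Hemoglobin chains Hbb (12.76) and Hba-a3 (10.61), carried by red cells, led that family, the embryonic Hbe2 was at 4.80 and Hbz was the last hemoglobin at 3.35. The name pattern also took in Hbegf (3.24), a growth factor and not a hemoglobin.

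The spread between arrays fell with level above the dimmest genes. The fitted SD was 0.10 log2 units at the lowest level, 2.31, was highest at 0.15 near a level of 4.77, and fell from there. It was 0.15 log2 units near a level of 4, 0.12 near 8, 0.097 near 10, 0.076 near 12 and 0.060 near 14, and the median SD over all genes was 0.13. A gene's SD was therefore divided by the fitted SD at its level (the SD ratio), and limma's fitted distribution of variances gave a p. Benjamini-Hochberg adjustment ran over the whole set of probe sets, with a threshold of 0.05. Of 31042 probe sets, 295 (0.95%) passed. Among genes, 195 of 14217 (1.37%) passed, and among those at or above the median level of all probe sets, 181 of 9598 (1.89%). That 1.37% is the share of all genes to set beside each list count below. The lists were chosen with earlier results of these data known. In all, 338 genes (2.38%) spanned over 2-fold between the lowest and highest array, and 56 spanned over 4-fold. Of the 195 genes, 40 had another probe set above the median level of probe sets. Another probe set passed in 22 of the 40. It was highest in the same array in 24 and lowest in the same array in 32.

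**Figure D2:**
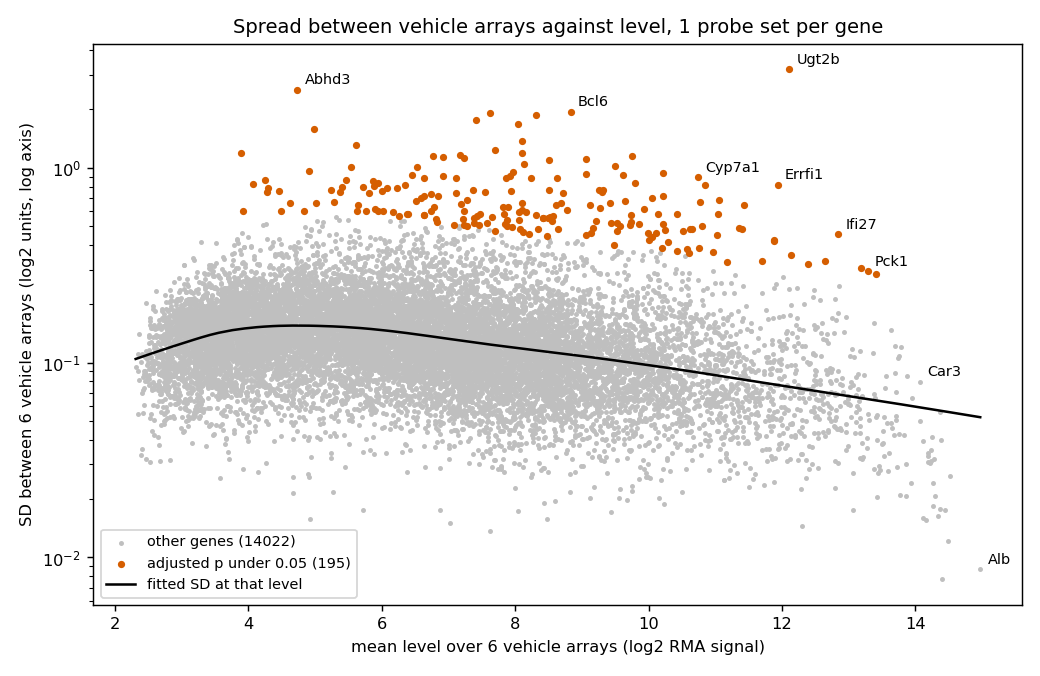
SD between the 6 vehicle arrays (log2 units, log axis) against mean level (log2 RMA signal) for 14217 genes, with the SD fitted at each level as a line and the 195 genes past an adjusted p of 0.05 in orange. Ugt2b, at a mean of 12.11, has an SD of 3.19 where the line lies near 0.076.

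Ugt2b (gene symbol as in the annotation), a glucuronosyltransferase, had the largest SD ratio, 42.5. It read 5.60 in replicate 2 and between 13.35 and 13.44 in the other 5 arrays, a 230-fold range (limma-based adjusted p = 2.62e-08). Its second probe set did the same, at 3.39 in replicate 2 and 9.71 to 10.05 elsewhere. Over all 36 arrays of the study, 3 arrays read 5.60 or lower and 33 read 12.96 or higher, with none between: the low arrays were vehicle replicate 2 and 2 dosed arrays from different groups. Without replicate 2 the SD ratio was 0.60 (adjusted p = 0.999), so the call rests on that array.

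Abhd3, an alpha/beta hydrolase domain gene, also had a pair of separate levels. It read 8.20 in replicate 4 and 7.74 in replicate 5, and 3.02 to 3.23 in the other 4 arrays (SD ratio 16.2). Its dimmer probe set was highest in the same arrays, at 4.01 and 3.84 against at most 3.47. Among all 36 arrays, 25 read 3.50 or lower and 11 read 7.47 or higher, and each of the 5 dosed groups held a low array. The call held when any 1 array was left out.

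Replicates 2 and 5 stood together at the extremes of many variable genes. Of the 195 genes, 50 had these arrays as their 2 highest and 13 as their 2 lowest, 32.3% in all, against 13.2% of all genes. Next were replicates 2 and 3, the 2 highest in 13 genes and the 2 lowest in 41 (27.7%, against 16.9% of all genes), and replicates 1 and 5, the 2 highest in 46 and the 2 lowest in 6 (26.7%, against 15.2%). Replicate 2 was the highest or lowest array for 58.5% of the 195 genes (34.1% of all genes) and replicate 5 for 47.2% (29.6%). Their actin 3' over 5' differences, 1.18 and 1.10, lay within the range of the other arrays or at its lower edge. Their Gapdh 3' over 5' differences, both -0.12, were the lowest of the 6, next to -0.11 in replicate 6 and -0.071 to -0.027 in the others. The part of RNA quality in this pattern was not tested.

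**Figure D3:**
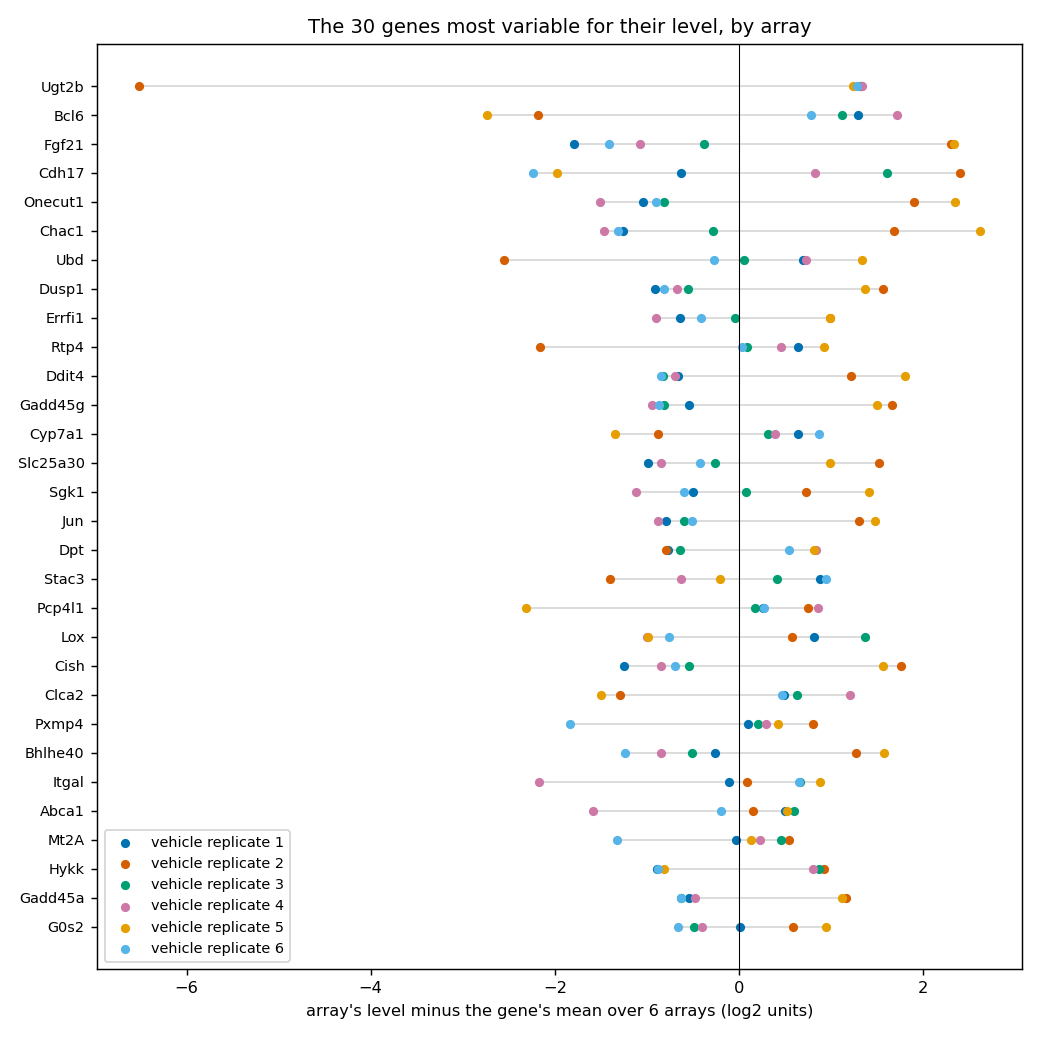
Level in each vehicle array minus the gene's mean over the 6 arrays (log2 units, x axis) for the 30 genes with the largest SD ratio at or above the median level, 1 colour per array. Replicates 2 and 5 sit together on the right for Fgf21, Onecut1, Dusp1 and Jun and together on the left for Bcl6, Cyp7a1 and Clca2.

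Some genes of the growth hormone pathway were among the most variable. Bcl6, a transcriptional repressor, read 6.66 and 6.10 in replicates 2 and 5 and 9.62 to 10.55 in the other arrays (SD ratio 17.6, adjusted p = 1.73e-05). Cish, a feedback inhibitor of cytokine signalling induced through STAT5, went the other way, at 7.38 and 7.18 in replicates 2 and 5 and 4.37 to 5.07 elsewhere (SD ratio 8.69). The groups of arrays did not overlap in either gene, and both probe sets of Cish passed. Socs2, another inhibitor of that pathway, ranged from 6.86 in replicate 4 to 9.15 in replicate 5. Of 26 growth hormone and male-specific genes, 5 passed (19.2%; Bcl6, Cish, Socs2, Cyp2c12 and Prlr), with a median SD ratio of 1.55 against 0.96 over all genes. Cyp2c12 and Prlr are female-predominant in rat liver, so the list is not of male-specific genes alone. The abundant male-specific enzymes did not pass: Cyp2c11 was at 13.65 ± 0.046 and Cyp2c13 at 13.72 ± 0.051.

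Some fasting and stress genes shared that pattern of arrays. Fgf21, a liver hormone of fasting and of the integrated stress response, read 10.62 and 10.66 in replicates 2 and 5 and 6.52 to 7.94 elsewhere (SD ratio 16.1). Chac1, a glutathione-degrading enzyme induced by ATF4, read 9.10 and 10.03 there and 5.94 to 7.13 elsewhere (SD ratio 13.8). Trib3, a pseudokinase of the same response, read 8.50 and 8.39 against 6.77 to 7.61. All 3 had their 2 highest arrays in replicates 2 and 5, with no overlap. Of 29 genes of the unfolded protein and integrated stress response, 6 passed (20.7%; Fgf21, Chac1, Trib3, Xbp1, Atf4 and Atf3; median SD ratio 1.86). Without replicate 5, 4 of them passed (Fgf21, Chac1, Trib3 and Atf3), and without replicate 2 all but Atf3 did. Of 22 fasting and gluconeogenesis genes, 6 passed (27.3%; Fgf21, Igfbp1, Trib3, Pdk4, Pck1 and Cpt1a; median 2.55). Of these, 4 passed without replicate 2, 3 or 5, and only Fgf21 and Trib3 passed whichever array was left out. Cpt1a lost its call without replicate 1, 2, 3 or 5. Pck1, the gluconeogenic carboxykinase, was instead lowest in the pair, at 13.01 and 12.95 in replicates 2 and 5 against 13.17 to 13.68 elsewhere. Not all of these genes followed the pair. Igfbp1, which binds insulin-like growth factors, was lowest in replicate 5 at 8.91 and highest in replicate 3 at 10.84. Cpt1a was highest in replicate 2 at 11.45 and lowest in replicate 5 at 10.58.

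Immediate early genes, which respond within minutes to growth factors and stress, gave 12 of 34 past the threshold (35.3%, against 1.37% of all genes). Their median SD ratio was 1.89. The phosphatase Dusp1 read 11.32 and 11.12 in replicates 2 and 5 and 8.85 to 9.20 elsewhere, and its dimmer probe set did likewise. Jun read 9.81 and 9.98 against 7.62 to 7.99, and all 3 of its probe sets passed. Gadd45g read 9.36 and 9.20 against 6.75 to 7.15, and the kinase Sgk1 10.94 and 11.63 against 9.09 to 10.29. The others that passed were Gadd45a, Dusp6, Egr1, Ccn1, Klf10, Atf3, Ier2 and Myc. Without replicate 2, 9 of the 34 passed (not Ccn1, Atf3 or Myc), and without replicate 5, 10 did (not Ier2 or Myc). Myc also lost its call without replicate 1 or 3. Of 19 genes of the glucocorticoid and metal response, 6 passed (31.6%; Dusp1, Errfi1, Sgk1, Mt2A, Lcn2 and Klf9; median 2.49). The median was 1.59 without replicate 4 and 1.63 without replicate 3, and 4 of the 6 passed without replicate 6 (Dusp1, Errfi1, Sgk1 and Klf9). Errfi1, an inhibitor of the EGF receptor, was at 12.93 in both replicates 2 and 5 and at 11.04 to 11.90 elsewhere. Mt2A, which binds zinc and copper, was instead low in 1 array, at 9.73 in replicate 6 against 11.03 to 11.60, and without that array its SD ratio fell from 7.99 to 2.93 (adjusted p = 0.253).

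Further genes with replicates 2 and 5 apart were the transcription factor Onecut1 (9.95 and 10.40 against 6.53 to 7.24), the mTOR inhibitor Ddit4 (9.32 and 9.90 against 7.25 to 7.44) and the lipase inhibitor G0s2 (12.02 and 12.37 against 10.76 to 11.43). The mitochondrial carrier Slc25a30 read 11.02 and 10.49 against 8.51 to 9.24. Cyp7a1, the rate-limiting enzyme of bile acid synthesis, was low in those arrays, at 9.86 and 9.40 against 11.06 to 11.61 (SD ratio 10.1), as was Clca2, at 5.95 and 5.74 against 7.71 to 8.44. Cyp7a1 was the only 1 of 21 genes of bile acid synthesis and transport to pass. Among 22 circadian clock genes, 3 passed: Bhlhe40 (8.04 and 8.34 in replicates 2 and 5 against 5.53 to 6.51), Nr1d2 (highest in replicate 2 at 8.64) and Cry1 (lowest there at 6.60). Without replicate 2 only Bhlhe40 of the 3 passed. The labels give no time of day or feeding state for single arrays, and the part of either was not tested.

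Interferon response genes varied between arrays, 17 of 39 past the threshold (43.6%, against 1.37% of all genes), with a median SD ratio of 3.02. Rtp4, an interferon-induced chaperone of receptors, read 6.91 in replicate 2 and 9.10 to 9.99 in the other 5 (SD ratio 10.3, adjusted p = 0.00029). Irf7, the transcription factor of the type I response, read 6.21 in replicate 2 and 7.89 to 8.90 elsewhere. The antiviral GTPase Mx2 read 4.74 in replicate 2 and 6.08 to 7.57 elsewhere, and the immunoproteasome subunit Psmb8 8.01 against 9.15 to 10.17. In each, replicate 2 was lowest and replicate 5 highest. The mean of the centred list was -0.79 in replicate 2, 0.45 in replicate 5 and -0.011 to 0.24 in the others. Without replicate 2, 2 of the 39 passed (Mx2 and Psmb8; median SD ratio 1.63), and Rtp4 missed the threshold (adjusted p = 0.0955). Ubd, a ubiquitin-like modifier induced by interferon gamma, showed the same order, at 5.55 in replicate 2 and 7.83 to 9.44 elsewhere (SD ratio 11.6).

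Promoters of the interferon genes were searched on both strands for AANNGAAAC, a core of the interferon-stimulated response element. Of the 39 genes, 29 had a RefSeq promoter (GRCr8) and 19 of these held the motif in the 250 bases before the start (65.5%), against 5.43% of all 27457 promoters. The last 120 bases before the start of 6 of the genes past the threshold are given to show where the motif lies, with the matches in capitals (GTTTC first where the match is on the other strand).
Irf7 (chr1:205800024-205800143, minus strand): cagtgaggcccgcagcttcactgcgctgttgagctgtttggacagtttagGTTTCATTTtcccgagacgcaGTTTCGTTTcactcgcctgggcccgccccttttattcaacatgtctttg
Ifi27 (chr6:128355192-128355311, plus strand): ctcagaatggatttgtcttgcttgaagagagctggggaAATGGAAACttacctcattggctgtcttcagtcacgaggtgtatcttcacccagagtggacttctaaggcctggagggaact
Oas1a (chr12:41330346-41330465, plus strand): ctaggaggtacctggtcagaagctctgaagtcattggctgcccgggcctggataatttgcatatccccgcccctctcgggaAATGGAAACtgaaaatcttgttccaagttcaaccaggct
Gbp2 (chr2:234005607-234005726, plus strand): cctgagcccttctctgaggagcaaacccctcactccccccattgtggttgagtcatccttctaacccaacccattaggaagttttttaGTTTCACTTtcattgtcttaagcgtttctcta
Igtp (chr10:42874927-42875046, plus strand): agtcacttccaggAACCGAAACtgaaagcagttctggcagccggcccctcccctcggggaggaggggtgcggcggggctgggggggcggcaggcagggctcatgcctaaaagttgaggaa
Ifit3 (chr1:241527206-241527325, plus strand): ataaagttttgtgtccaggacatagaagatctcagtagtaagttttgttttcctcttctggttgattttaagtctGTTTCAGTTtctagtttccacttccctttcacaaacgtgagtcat
Irf7 held the motif in 2 places in this window and the other 5 genes in 1. In circadian clock genes, CACGTG (the E-box) was in 3 of 18 promoters (16.7%, against 5.79% of all) and TTATGNAA (a D-box core) in 1 of 18 (5.56%, against 3.21%). TCACNCCAC, a sterol response element core, was in 0 of 16 promoters of cholesterol synthesis genes, against 0.976% of all.

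Some immune cell genes were also lowest in replicate 2. Of 14 Kupffer cell and macrophage markers, 4 passed (28.6%, against 1.37% of all genes). They included the secreted Cd5l (8.64 in replicate 2, 9.63 to 10.22 elsewhere) and the lectin Clec4f (9.70 against 10.64 to 11.04). The others were the complement subunits C1qa (9.17 against 10.01 to 10.32) and C1qc (8.70 against 9.49 to 9.82). Without replicate 2, 0 of the 14 passed. Of 11 antigen presentation genes, 5 class II genes passed (45.5%; RT1-Bb, RT1-Da, RT1-Db1, RT1-Ba and Cd74; median SD ratio 3.42), and 3 did without replicate 5 (median 1.84). RT1-Da, for example, read 9.08 in replicate 2, 10.78 in replicate 5 and 9.64 to 10.50 in the others. The brighter probe set of RT1-Bb read 7.49 in replicate 5, 6.48 in replicate 3 and 3.76 to 4.15 in the other 4. Its second probe set (mean 4.47, SD ratio 1.32) lacked this pattern, at 4.49 in replicate 5 and 4.21 in replicate 3. RT1-Ba was lowest in replicate 3, at 9.03, next to 9.26 in replicate 2, and highest in replicate 1 at 10.48. Of its 3 other probe sets above the median level of probe sets, 1 passed. In highest array 0 of these matched the brightest, and in lowest array 0. The chemokine Ccl5 (6.88 in replicate 2, 7.78 to 8.33 elsewhere) was the only 1 of 23 lymphocyte markers to pass, and it did not pass without replicate 2. The part of these markers in the interferon result was not tested.

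**Figure D4:**
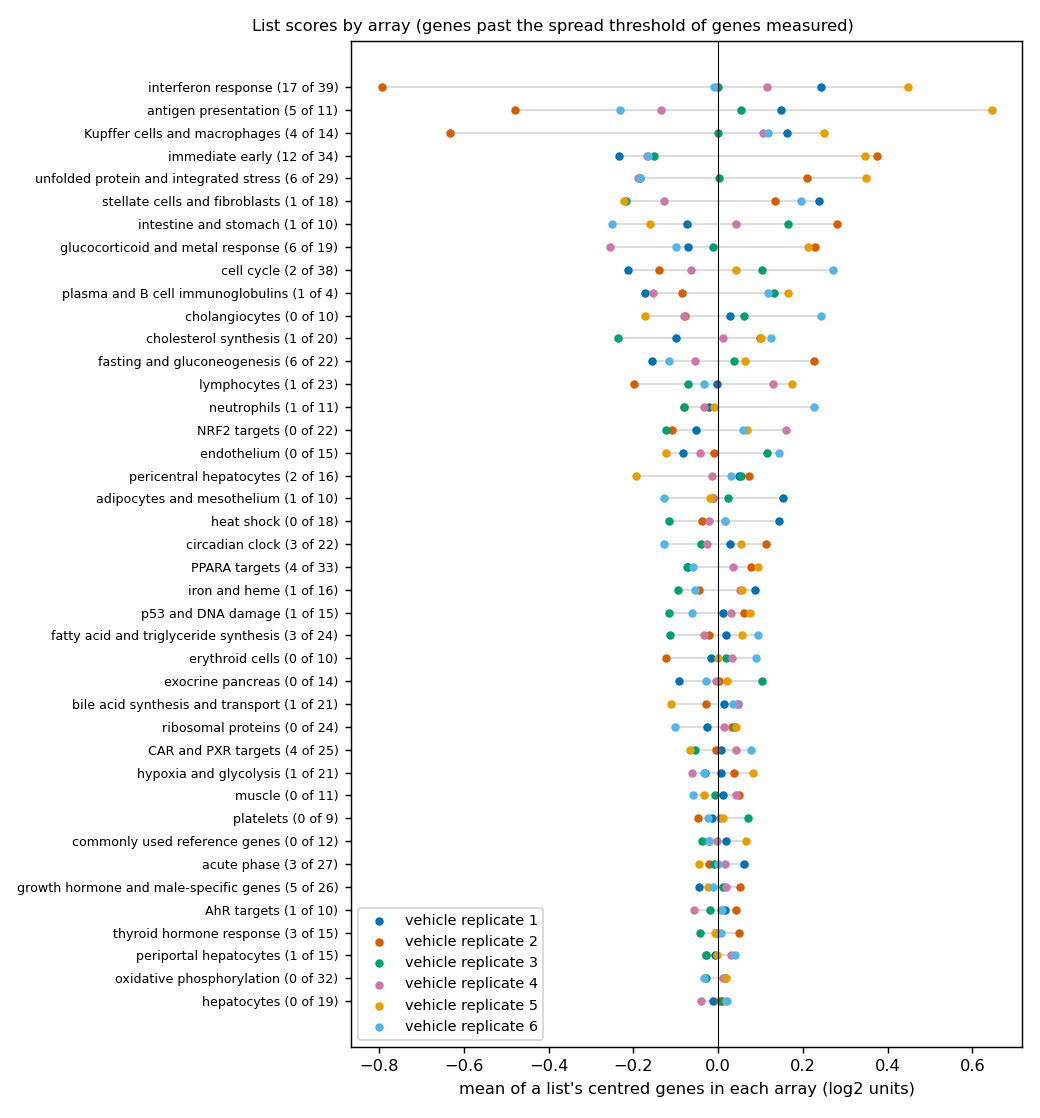
Mean of each list's centred genes in each vehicle array (log2 units, x axis) for 41 gene lists, ordered by the spread of that mean, with the number of genes past the spread threshold of the number measured. The interferon, antigen presentation and Kupffer cell lists are lowest in replicate 2 (-0.79, -0.48 and -0.63), while the hepatocyte list spans 0.060.

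Other single arrays stood apart in single genes. Cdh17, an intestinal cadherin, had no common pattern: it ran from 5.38 in replicate 6 and 5.64 in replicate 5 to 10.02 in replicate 2 (SD ratio 15.5), while the other 9 intestine and stomach markers did not pass and had means of 3.60 to 6.16. Pcp4l1 read 4.86 in replicate 5 and 7.35 to 8.02 elsewhere, and without that array its adjusted p was 0.447. The peroxisomal membrane gene Pxmp4 read 7.23 in replicate 6 and 9.16 to 9.86 elsewhere, with an adjusted p of 0.403 without that array. The leukocyte integrin Itgal read 4.75 in replicate 4 and 6.81 to 7.80 elsewhere (adjusted p = 0.157 without it). The cholesterol exporter Abca1 read 8.22 in replicate 4 and 9.60 to 10.40 elsewhere (adjusted p = 0.129 without it). The probe sets of Abca1 disagreed: another was also lowest in replicate 4, at 5.82, but the remaining pair were highest there, at 9.53 and 6.97.

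Splits of 3 arrays against 3 also occurred. The matrix gene Dpt read 11.68, 11.67 and 11.39 in replicates 4, 5 and 6 and 10.06 to 10.21 in the others, in both of its probe sets. Lox, a collagen cross-linking enzyme, had the opposite split, at 7.12 to 7.36 in replicates 4, 5 and 6 and 8.70 to 9.50 in the others. Hykk read 8.78 to 8.90 in replicates 2, 3 and 4 and 7.09 to 7.16 in the others. Stac3 had no split, from 8.22 in replicate 2 to 10.57 in replicate 6.

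Below the median level of probe sets, 14 genes passed. Of the 10 with the largest SD ratio, the 8 besides Abhd3 and RT1-Bb each rested on 1 or 2 arrays. Spin2b read 6.29 in replicate 1 and 3.10 to 3.70 elsewhere, and the calcium-binding S100g 6.00 in replicate 6 and 3.76 to 4.05 elsewhere. Efemp1 was high in replicate 1 (5.62, against 3.37 to 4.16), Ly6al high in replicate 6 (5.86, against 3.80 to 4.76) and Siglec5 low in replicate 6 (3.09, against 4.90 to 5.89). Ddx60, AA926063 and Ifit3 were low in replicate 2, at 2.86, 2.86 and 3.88. Each of these 8 lost its call without the array named, with adjusted p-values of 0.942 for Spin2b, 0.994 for S100g, 0.440 for Efemp1, 0.546 for Ly6al, 0.401 for Siglec5, 0.419 for Ddx60, 0.742 for AA926063 and 0.399 for Ifit3, which also lost it without replicate 5. The other 4, named after their values were seen so that the count is complete, were Zfp455l1 (mean 4.83), Mboat1 (4.62), Fabp4 (4.48) and Upk1b (3.92), with SD ratios of 3.90, 4.24, 3.88 and 4.01.

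Lists tied to xenobiotic receptors and lipids ranged from 0 to 20% past the threshold, against 1.37% of all genes. The counts cover genes with a probe set of their own, and 12 probe sets past the threshold that are given to several genes stand outside them. Of 25 CAR and PXR targets, 4 passed (16.0%; Cyp3a9, highest in replicate 1 at 9.02, Ugt2b1, Nr1i3 and Alas1), but only Ugt2b1 did without replicate 3, and 2 did without replicate 4 or 5. Of 10 AhR targets, Tiparp alone passed, and it did not without replicate 2, 3, 5 or 6. Of 22 NRF2 targets, 0 passed (median SD ratio 1.73). Of 33 PPARA targets, 4 passed (12.1%; Fgf21, Cidea, Pdk4 and Cpt1a), and 2 did without replicate 2 or 5. Fatty acid and triglyceride synthesis had 3 of 24 (12.5%; Mid1ip1, Scd and Elovl6), of which Mid1ip1 alone passed without replicate 3. Cholesterol synthesis had 1 of 20 (Insig1, 10.38 in replicate 4 to 11.87 in replicate 5), with a median SD ratio of 1.93. The thyroid hormone list had 3 of 15 (20%; Cyp7a1, Serpina7 and Klf9).

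In the remaining lists, the acute phase had 3 of 27 past the threshold (11.1%, against 1.37% of all genes). These were Lcn2 (7.51 in replicate 6, 5.29 to 6.08 elsewhere), A2m and Orm1. A2m did not pass without replicate 1, nor did Orm1 without replicate 2. Lcn2 was also the only 1 of 11 neutrophil markers to pass, and it did not without replicate 6. The cell cycle had 2 of 38, Cdkn3 and Ccnb2, both highest in replicate 6 (7.01 and 6.86), and 0 without replicate 1, 3 or 6. Pericentral hepatocyte genes had 2 of 16 (Cyp7a1 and Oat), of which only Cyp7a1 passed without replicate 2 or 4. Lists with 1 gene were periportal hepatocytes (Pck1, of 15, not without replicate 3), stellate cells and fibroblasts (Lum, of 18), adipocytes and mesothelium (Fabp4, of 10, not without any 1 array), immunoglobulin cells (Xbp1, of 4, not without replicate 5), iron and heme (Alas1, of 16, not without replicate 3, 4 or 5), p53 and DNA damage (Gadd45a, of 15) and hypoxia and glycolysis (Bhlhe40, of 21). Of the 195 genes, 80 were in a list and 115 in none.

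In 12 lists, 0 genes passed the threshold. By the limma-based test, 0 passed among 19 hepatocyte markers (median SD ratio 0.62), 32 oxidative phosphorylation genes (0.67), 24 ribosomal protein genes (0.90) and 12 commonly used reference genes (1.03). The same count of 0 held for 18 heat shock genes, 15 endothelial, 10 bile duct, 10 erythroid, 9 platelet, 11 muscle and 14 exocrine pancreas markers. With the NRF2 targets, these 12 lists held 196 entries (a few genes are in more than 1 list). Of the 196, 28 had an unadjusted limma-based p under 0.05, a larger share than the 1074 of 14217 genes (7.55%). Of the 28, 9 were NRF2 targets, 4 heat shock genes, 4 hepatocyte markers and 2 reference genes. None were ribosomal, oxidative phosphorylation, muscle or platelet genes. Among the hepatocyte markers, Tat had the largest SD ratio, 3.42. Among the reference genes, the transferrin receptor Tfrc was the least steady, from 8.36 in replicate 2 to 9.37 in replicate 5 (SD ratio 3.76, adjusted p = 0.0575). The steadiest genes for their level were Ddx42 (7.62 ± 0.014, SD ratio 0.11), Numa1 (7.03 ± 0.015), Irf5 (5.72 ± 0.017), Dnm2 (6.87 ± 0.018), Serpina1, Svip, Neurog1, Aggf1, Klhdc2 and Alb. In the dosed groups Ddx42 had an SD ratio of 0.98 and Irf5 1.04, whereas Alb had 0.13.

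The spread within the 5 dosed groups, with each group's own mean removed, gave the same measure in arrays other than the vehicle arrays. There, 517 of 31042 probe sets (1.67%) and 312 of 14217 genes (2.19%) passed. Of the 195 vehicle genes, 169 (86.7%) also passed within the dosed groups, and they were 54.2% of the 312. An SD ratio above 2 within the dosed groups was found for 192 of the 195 (98.5%) and for 6.70% of all genes. Ugt2b, Abhd3 and Bcl6 had the largest dosed SD ratios, at 27.1, 14.8 and 14.4, then Ubd at 11.1 and Onecut1 at 10.3. Kupffer cell markers gave 10 of 14 past the threshold there, and interferon genes 22 of 39.

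**Figure D5:**
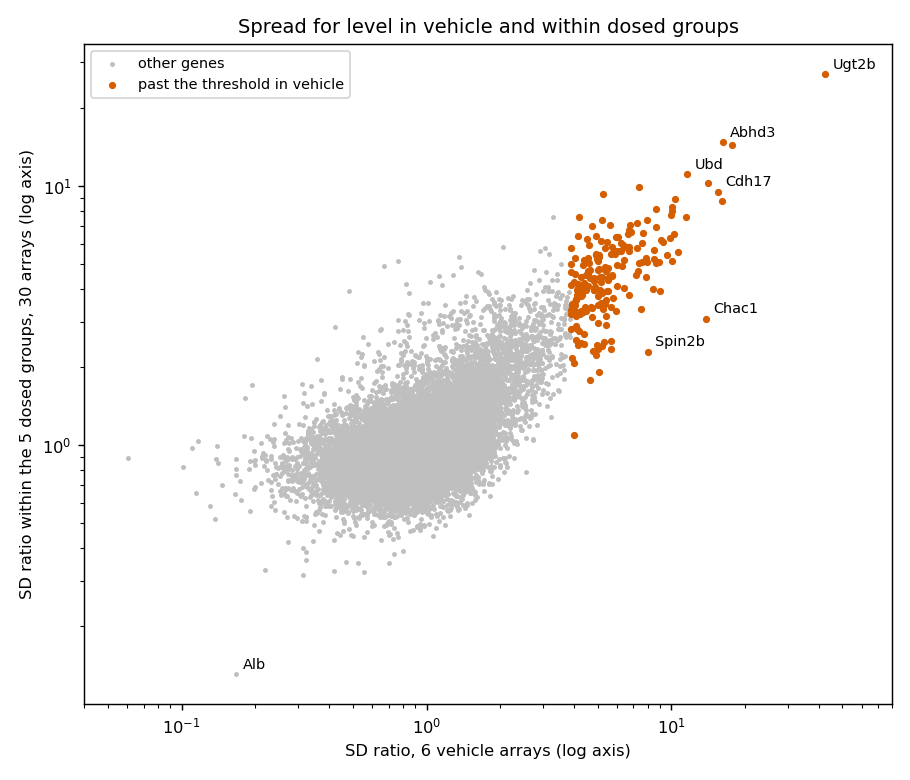
SD ratio within the 5 dosed groups (30 arrays, y axis) against SD ratio in the 6 vehicle arrays (x axis), both on log axes, 1 point per gene, with the 195 genes past the vehicle threshold in orange. Ugt2b is far out on both axes (42.5 and 27.1), whereas Chac1 (13.8 and 3.08) and Spin2b (8.04 and 2.30) are less extreme in the dosed groups.

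Some genes were not as variable there. Chac1 had a dosed SD ratio of 3.08 and just missed the threshold (limma-based adjusted p = 0.052). Spin2b and S100g, each set by 1 vehicle array, had dosed ratios of 2.30 and 2.36 (adjusted p = 0.200 and 0.177).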

How the data were processed

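The deposited values are log2 signals per probe set, made by the authors with RMA and the affy package per the submitters' processing notes (versions and genome build not given in the sources used here). RMA corrects background and sets all arrays to 1 distribution, so differences in total RNA are not seen, and the number of arrays limits the precision. Groups and replicate numbers came from the sample titles. Of 31099 probe sets, 57 controls were left out. The platform annotation named a single symbol for 20826 of them. Another 436 had several symbols and 9780 had no symbol. No gene was named from a probe set with several. Of those with 1 symbol, 20758 had a gene ID in RefSeq, and 0 symbols were updated.

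Spread was tested in limma 3.58.1 (R 4.3.3): fitFDistRobustly was fitted to the variances of the 6 arrays (5 degrees of freedom) with mean level as covariate, and each variance was set against the upper tail. The dosed groups gave a pooled variance with 25 degrees of freedom. The series' design text names R/maanova for comparisons of doses, which were not made. The test was tried on simulated data with 31042 probe sets, drawn as normal noise from the fitted model itself. It recovered 0%, 34%, 62% and 94% of 50 probe sets given 2, 4, 6 and 10 times the SD, with 0 false calls. Such data cannot show how often real probe sets that depart from the model are called falsely. Tables were made with Python 3.11.15. Lists and families came from general knowledge, and the members and lists were chosen with earlier results of these data known. Lists had no set test.

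Named genes were the 30 highest, the 30 with the largest SD ratio past the threshold at or above the median level of probe sets, 10 below it, the 10 steadiest, the first 3 and last of each family, and up to 4 members of each list. Other list members past the threshold, and genes beside these, were named after their values were seen. Alternatives were a non-robust fit, no trend, other scalings, filters, and leaving out each array.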

Additional observations from a re-analysis of the deposited data

Results flagged for a closer look

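In 18 of 121 sets of 6 vehicle values tested (14.9%), 1 array stood apart: its gap to the nearest array, divided by the whole range, passed Dixon's critical value for 6 values. Chance alone flags about 5% of such sets, and many of these genes were named because they vary. The causes were not tested.

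Replicate 2 stood apart, low, in Ugt2b (gap over range 0.988), Rtp4 (0.713), Apoc3 (0.639, at 14.42 against 14.45 to 14.47), the mean of the interferon list (0.631) and that of the Kupffer cell list (0.716). Replicate 1 stood apart in Apoh (0.740, low at 14.22), C3 (0.628, high at 14.30), Spin2b (0.811, high) and Efemp1 (0.651, high). Replicate 4 was low in Itgal (0.675) and Abca1 (0.634). Replicate 5 was low in Pcp4l1 (0.787) and in the mean of the pericentral hepatocyte list (0.673, at -0.19 against -0.015 to 0.073). Replicate 6 was low in Pxmp4 (0.735), Mt2A (0.692) and Siglec5 (0.647) and high in S100g (0.871) and in the mean of the neutrophil list (0.765, at 0.23 against -0.081 to -0.0088).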

How the results depend on the processing

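The count of variable probe sets depended on the fit. Against 295, a non-robust prior gave 76 and no trend in level 44. Filters also left fewer probe sets to test, so their counts are not directly comparable with 295. Leaving out the dimmer part of the probe sets (below their median level) gave 86. Keeping 1 probe set per gene gave 130, against 195 genes in the main fit. All of these were among the 295. Centring on array medians gave 270 and quantile normalization 250. Leaving out 1 array gave 192 (without replicate 2) to 276. Of the 30 named variable genes at or above the median level, 20 kept their call without a trend and 30 under the other 5 settings that use all 6 arrays. Of the 10 named below it, 7 lost their call with a non-robust prior and 6 without a trend. Members of the lists past the threshold numbered 47 (without replicate 2) to 76 when 1 array was left out. In the dosed groups, against 517, a non-robust prior gave 19 and no trend 140.

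A replicate block on the dosed groups, added after the data were seen, gave 478. The replicate numbers did not pair the arrays: the mean correlation of deviations was -0.0075 over 60 pairs with the same number, and 6 of 30 arrays correlated best with their own number. The vehicle arrays are 1 group, to which no block applies. With 6 arrays, variation of 2 times the fitted SD was not detectable, and detection calls were not used here.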
